A study of Arabidopsis thaliana with 4 samples.

Results

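The sites described here lie inside genes, close to a gene end. There the deposited peak list of tagged wild-type RGA held a call and that of a mutant form did not. They were chosen by a rule: intervals of the FLAG-RGA wild-type peak list that overlapped no interval of the FLAG-rga11 mutant list by even 1 bp, with the summit inside a nuclear protein-coding gene and at most 500 bp from the nearest end of a gene that holds it. The rule kept 2504 of 6116 wild-type peaks (40.9%), which is 43.0% of the 5827 wild-type-only peaks. In all, 4.73% of wild-type peaks overlapped a mutant peak, and of the wild-type peaks in the same position 119 of 2623 (4.54%) did. Both peak calls went into this choice, so the folds below are a description and carry no test. "Wild-type-only" means only that the mutant list holds no overlapping call.

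RGA is a DELLA protein, one of a small family of nuclear repressors of growth. Gibberellin (GA) bound to a GID1 receptor leads to destruction of DELLA proteins through the F-box protein SLY1. DELLA proteins have no DNA-binding domain of their own and sit on chromatin through transcription factors, and the series title concerns their PFYRE subdomain and its binding to histone H2A. A ChIP-seq summit therefore marks chromatin that was cross-linked to a complex holding the protein.

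Chromatin immunoprecipitation with FLAG-M2 beads was done on Arabidopsis thaliana seedlings grown for 10 days in continuous light on MS plates. The groups were FLAG-RGA wild type in sly1 dP, FLAG-rga11 mutant in sly1 dP, a control of the mutant labelled sly1 dP, and a control of the wild type labelled RGA sly1 dQ. Each of the 4 groups had 1 library, so no value here has a replicate check. The labels name neither the promoter of the tagged proteins nor how many seedlings or lines were pooled. The files hold called peaks, so the mutant has no value at a place where it had no listed call.

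Each peak carries a fold that the authors' caller gave, ChIP coverage over control at the summit with a pseudocount of 1, and a −log10 q. The 2504 sites had a median fold of 2.27, with quartiles of 2.03 and 2.59 and a range from 1.26 to 6.41. Their median −log10 q was 5.94, and 18.7% (exact 95% Clopper-Pearson interval 17.1 to 20.2) had a −log10 q of 10 or more; by that stricter rule 476 coding genes (1.73%) had a site. Fold and p together fix how many ChIP fragments covered a summit; the median was 60, the lowest value 33 and the highest 838. The same calculation gave the control level that the call had used, here named control signal. Its median was 1.70 times the genome background of the wild-type call. That background was taken as the lowest solved level, 14.5 fragments per base, so no site can lie below it. Control signal at background therefore means at this floor, and coverage of the control library at the summit itself was not seen. Intervals were 217 bp wide at the median and ran from 136 to 1078 bp. All intervals given here cover counting error only.

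The strongest site lay 146 bp inside PLDP1 (AT3G16785), a phospholipase D gene, at chr3:5718939-5719238, with a fold of 6.41, 98 ChIP fragments and control signal at the genome background. It was followed by a site 82 bp inside AT1G03457 at chr1:864204-864392 (fold 5.74) and one 73 bp inside AT2G39865 at chr2:16641739-16641937 (5.67). The fourth lay 497 bp inside AT1G19000 at chr1:6560873-6561120 (5.56), and the fifth 210 bp inside AT2G22426 at chr2:9517037-9517227 (5.43). Sites inside AT3G25716 (5.04), AT1G79640 (5.01), AT1G33250 (4.95), AT5G07590 (4.92) and AT5G12043 (4.90) completed the 10 highest folds. Of these 10, 7 lay within 150 bp of the gene end. By −log10 q the highest were AT5G12043 (85.0, with 250 ChIP fragments), AT5G07590 (64.1), Cand1 (AT1G57680, 63.3), AT1G03457 (51.2) and AT3G25716 (49.9). Cand1 reached that rank with a fold of 3.62 over a control signal of 5.04 times background, so the order by fold and the order by q differ where control signal is high.

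Sites were not spread evenly over the allowed depth. Counted per megabase (Mb) of sequence at the same depth inside coding genes, there were 49.8 sites within 50 bp of the end, 72.1 between 100 and 149 bp, 112 between 150 and 199 bp, and 126 between 300 and 349 bp. Between 450 and 500 bp the density was 99.1 per Mb. Over all allowed depths it was 98.6 per Mb, against 32.4 for wild-type-only summits deeper inside genes and 55.3 for those outside within 1 kb. The median site lay 279 bp inside, at 12.5% of the length of its gene, and 351 intervals (14.0%, 12.7 to 15.4) reached past the nearest gene end. Bases in this position made up 21.3% of the span that holds annotated genes.

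**Figure D1:**
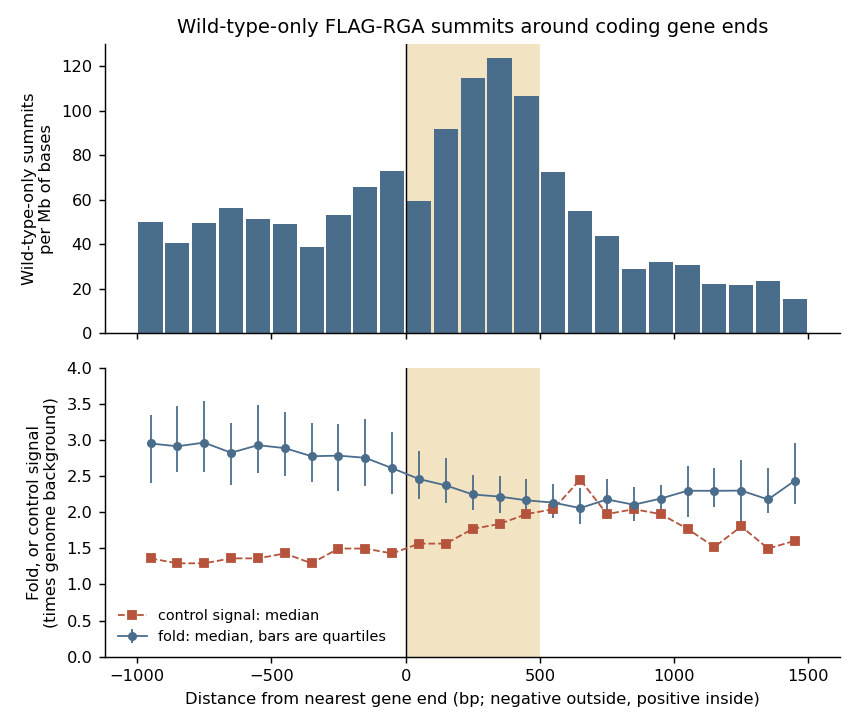
Wild-type-only summits by distance from the nearest coding gene end in 100-bp bins, negative outside and positive inside; the shaded band holds the sites described here. The upper panel gives summits per Mb of bases, highest at 124 between 300 and 400 bp inside, and the lower panel gives the median fold with quartiles and the median control signal in multiples of the genome background.

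Fold fell with depth. The median fold was 2.52 within 50 bp of the end (134 sites), 2.47 between 100 and 149 bp (191 sites), 2.23 between 250 and 299 bp (319 sites) and 2.17 between 450 and 500 bp (233 sites). The share with a −log10 q of 10 or more was 29.1% (21.6 to 37.6) in the outermost 50 bp and 16.4% (14.5 to 18.4) between 250 and 500 bp. Over the 2504 sites Spearman's rho between depth and fold was −0.24, given as a description of sites from the same library. ChIP fragments over the summit did not fall along with the fold, with medians of 59.5, 57, 60 and 65 at those 4 depths. Control signal rose, from 1.57 times background in the outermost 50 bp to 1.97 times at 450 to 500 bp, and a higher control signal lets a lower fold pass the call. With control signal held at 2 times background or less, the median fold was 2.61, 2.54 and 2.59 in the 3 outermost bins of 50 bp. It then lay between 2.36 and 2.43 in every bin from 150 to 500 bp, with no further decline, and rho was −0.14 over 1559 sites.

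By fold, the strongest sites were therefore concentrated toward the gene end. Of 46 sites with a fold of 4 or more, 54.3% lay within 150 bp of the end, compared with 10.8% of the 574 sites with a fold below 2. Their median depths were 135 and 330 bp. The weak group had a median control signal of 2.79 times background and the strong group 1.23 times. The part of control signal in this difference was not tested.

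At the 500 bp limit the median fold hardly differed, while −log10 q and the number of sites were lower just beyond it. The 3 sites just inside, each 500 bp from the end, lay in AT1G62370 (fold 2.11), SLD1 (1.41), a sphingolipid desaturase gene, and RAP2.9 (2.21), an ERF-type factor gene. The 3 just outside lay 501 bp inside ZF1 (1.69) and 502 bp inside AT1G74050 (2.62) and AT1G80180 (2.38). The median fold was 2.17 for the 233 sites at 450 to 500 bp and 2.15 for the 174 wild-type-only sites at 501 to 550 bp. Their median −log10 q was 6.07 and 5.33.

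Compared with the neighbouring position classes of the same library, the sites resembled the deep ones in strength more than the outer ones. The 1266 wild-type-only sites deeper inside genes had a median fold of 2.16, and the 1344 outside genes within 1 kb had 2.78. A −log10 q of 10 or more was reached by 17.0% (15.0 to 19.2) of the deep sites and 45.1% (42.4 to 47.8) of the outer ones. Control signal above 5 times background was found at 4.99% (4.17 to 5.92) of the sites described here, at 9.57% (8.0 to 11.3) of the deep ones and at 0.967% (0.516 to 1.65) of the outer ones. Median ChIP fragments were close, at 60, 64 and 61. The 119 wild-type peaks in the same position that overlapped a mutant peak differed more. They had a median fold of 1.94 and a median of 145 ChIP fragments, and 50.4% (41.1 to 59.7) had control signal above 5 times background. Despite the lower fold, 52.9% (43.6 to 62.2) of them had a −log10 q of 10 or more, against 18.7% of the sites described here. Their median −log10 q was 10.6, against 5.94. With 1 library these differences between classes were not tested.

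Gene ends differ in how much open space lies beyond them, and the sites were unevenly placed in that respect. Because no strand was used, the 5′ and 3′ ends could not be distinguished. For 2449 sites the gaps to the next coding gene on either side differed, and the end nearest the site faced the longer gap for 1441 (58.8%, 56.9 to 60.8). Of all bases in the same position 50.6% face the longer gap. Among wild-type peaks in this position that overlapped a mutant peak it was 74 of 113 (65.5%, 56.0 to 74.2). The placement is therefore not particular to wild-type-only sites. The median gap was 741 bp at the nearest end and 441 bp at the far end, against 639 bp over all coding gene ends. At 9.03% of the sites the nearest end touched or overlapped another coding gene, and at 18.4% the far end did.

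This one-sidedness was strongest close to the end. The share facing the longer gap was 66.2% (57.3 to 74.2) within 50 bp, 68.5% (61.2 to 75.3) between 50 and 99 bp and 66.1% (58.8 to 72.9) between 100 and 149 bp. It was 58.3% (52.6 to 63.9) between 250 and 299 bp and 49.3% (42.7 to 56.0) between 450 and 500 bp. Among deep wild-type-only sites it was 52.9% (50.1 to 55.7). By strength the share was 55.7% for folds below 2, 59.8% from 2 to 2.5, 61.1% from 2.5 to 3, 57.2% from 3 to 4 and 56.5% for folds of 4 or more.

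**Figure D2:**
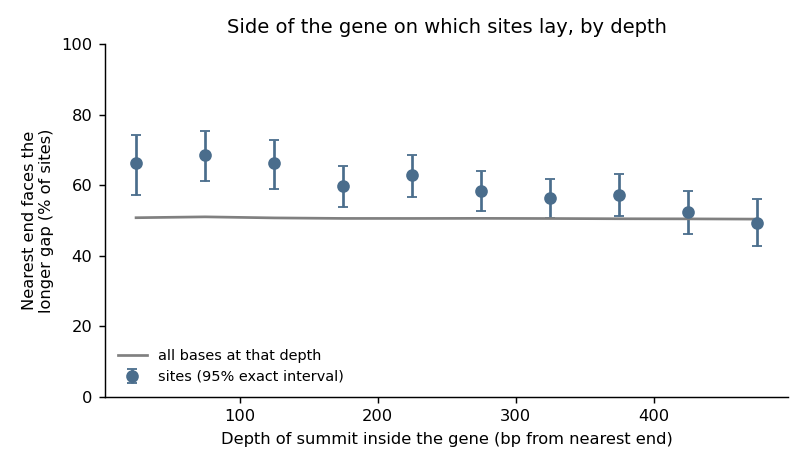
Share of sites whose nearest gene end faces the longer of the gaps to the neighbouring coding genes, by depth in 50-bp bins, with exact 95% intervals; the grey line is the same share over all bases at that depth. The share falls from 66.2% nearest the end to 49.3% at 450 to 500 bp.

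The sites marked 2483 coding genes, 9.05% of the 27444 counted. Of these genes 2409 had 1 site and 74 had 2, and no gene had 3 or more. In 69 of the 74 the summits lay near opposite ends of the gene. The rule favours this, since 2 separate intervals have little room within 500 bp of the same end. A single gene held 2431 sites, and 72 sites were held by 2 overlapping genes and 1 by 3. Genes over 1000 bp long had a site in 9.50% of cases and shorter ones in 6.64%. The shorter ones lie wholly within reach of the rule but offer fewer bases to it, and sites per base were not counted by gene length. The share of genes with a site ran from 3.54% in genes up to 500 bp to 10.4% in genes of 2000 to 3000 bp. Across chromosomes it ran from 8.06% on chromosome 2 to 9.53% on chromosome 1. A further wild-type-only summit lay outside the gene within 1 kb for 231 of the 2483 genes (9.30%, against 6.44% of all coding genes), and a deep one lay in 180 (7.25%, against 4.23%).

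How far the absence of a mutant call can be read depends on the strength of a site. The mutant call had a lower background, 7.21 fragments per base, and its list a stricter lowest p. With control signal at background, a fold of 2.2 sufficed to reach the wild-type list, while the mutant list required 2.93. Both lists hold part of the called peaks, so these are bars of the deposited lists and not of the caller. What the mutant call needed refers to this bar throughout. Taking for each site the fold that the mutant call would have needed at the same multiple of background, 724 of the 2504 (28.9%, 27.1 to 30.7) had a wild-type fold high enough. The other sites would not have reached the deposited mutant list at an equal fold, though they may have been called and left out of it. This share was 45.5% (36.9 to 54.3) within 50 bp of the end and 25.4% (23.2 to 27.8) between 250 and 500 bp, and it was 56.8% (54.1 to 59.5) for outer sites. It assumes that control signal keeps its multiple of background in the control of the mutant call, which was not tested. Which library served as that control is unsettled, since the names in the mutant list differ from the labels.

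**Figure D3:**
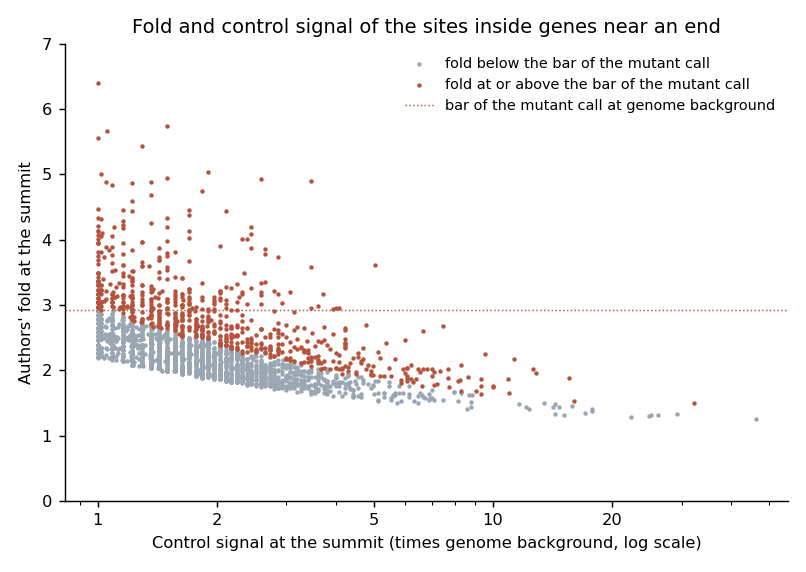
Authors' fold of each of the 2504 sites against control signal at the summit, in multiples of the genome background on a log scale. Red points have a fold at or above what the mutant call needed at the same control multiple (724 sites) and grey points lie below it; the dotted line marks that fold at background, 2.93.

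The mutant list held 505 peaks, and the rule removed sites that overlapped one. Long distances to mutant peaks therefore follow in part from the size of that list and from the rule. The nearest mutant interval was within 500 bp of 30 sites and within 1 kb of 51, and the median distance was 82774.5 bp. No such counts were made for other positions, so whether these are few or many was not tested. Of the 2483 genes 48 (1.93%) also held a mutant summit elsewhere, against 1.22% of all coding genes. Among the list genes described below, a mutant interval within 500 bp was found for the sites at CYP707A3, an abscisic acid catabolism gene (163 bp), IAA19 (260 bp), UBQ10 (270 bp), PAR1 (367 bp) and CBF1 (483 bp). These 5 were picked out after their values were seen. Both lines thus had a call within 500 bp of those summits' intervals, without overlap.

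Lists of genes were then read against the 9.05% of all coding genes that had a site. Over the 19 lists 85 of 377 genes had one (22.5%), and 16 lists lay above the share of all genes. These are well-studied genes, and the lists of abundant transcripts (6 of 20) and of seed genes (3 of 16) lay above it too. No list was tested. Of all 2504 sites 28.9% met what the mutant call needed and 18.7% had a −log10 q of 10 or more. The counts of such sites in single lists below rest on few sites and are to be read beside these shares.

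GA genes had 5 of 29 marked, with a median fold of 2.85 against 2.27 for all sites. Control signal at these 5 sites had a median of 1.16 times background, against 1.70 for all sites. A site with low control signal needs a higher fold to be listed, and the part of this in the higher median was not tested. Only SCL3 had a −log10 q of 10 or more. SCL3, a GRAS regulator of GA responses, had a site 119 bp inside with a fold of 4.08, 62 ChIP fragments and control signal at background. GA2, which encodes ent-kaurene synthase of early GA synthesis, had 2.99, and the GA-inactivating GA2OX1 had 2.85. The GA-activating 3-oxidase gene GA3OX2 had 2.27, and the DELLA gene RGL3 had 1.90 at 491 bp. The folds of SCL3 and GA2 alone met what the mutant call needed, so 3 of the 5 would not have reached the mutant list at an equal fold. No GID1 receptor gene had a site of this kind.

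PIF, HLH and shade regulators had 6 of 20 marked, with a median fold of 2.56. PIF7, a bHLH factor of the shade response, had a fold of 3.36 at 65 bp. PAR2 and PAR1, HLH proteins that hold back shade growth, had 2.98 at 64 bp and 2.80 at 12 bp. PIF4, a bHLH factor of warmth and light responses, had 2.33. The 3 highest lay within 65 bp of the gene end, each on the side of the longer gap. Of the IDD zinc-finger and SCR/SHR genes 1 of 14 was marked, AT3G45260 with a fold of 2.84.

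Auxin genes had 10 of 28 marked, with a median fold of 2.23. The Aux/IAA repressor genes IAA7 (4.14), IAA3 (2.92) and IAA17 (2.45) and the auxin receptor gene AFB2 (2.61) led the list. IAA3 and IAA17 are neighbours, and their sites faced the same gap of 6388 bp between them. The folds of 3 of the 10 met what the mutant call needed. Brassinosteroid genes had 5 of 15 marked. Their highest were the P450 gene ROT3 (2.46), the kinase gene BIN2 (2.42), which restrains brassinosteroid signalling, BSK1 (2.15) and BES1 (2.07), and none reached a −log10 q of 10.

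Among abscisic acid genes 5 of 20 were marked, led by the bZIP factor gene ABF3 (2.85), the phosphatase gene HAI1 (2.69) and the receptor genes PYL1 (1.93) and PYR1 (1.79). Jasmonate genes had 3 of 19, the repressor gene JAZ12 (2.29), AOC1 (1.84) and LOX3 (1.41). AOC1 has close copies beside it, and reads of such copies may have been split among them. Ethylene genes had 2 of 15, the F-box gene EBF1 (2.26), whose product targets EIN3, and the kinase gene CTR1 (1.84). Cytokinin genes had 1 of 13, the receptor gene AHK2, with a fold of 4.06 at 100 bp and control signal at 1.02 times background. The intervals of these 4 shares include 9.05%.

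**Figure D4:**
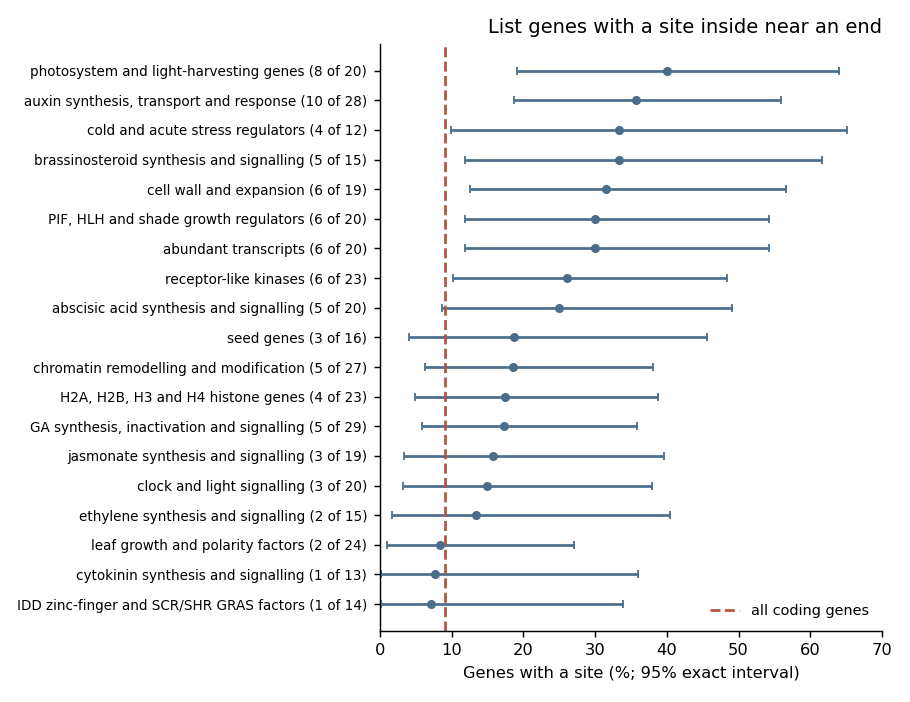
Share of the genes of each list that had a site, with exact 95% intervals and the counts in the labels; the dashed line marks the 9.05% of all coding genes. Photosystem genes stand highest at 40.0%, and the abundant transcripts stand at 30.0%.

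Of the cold and acute stress regulators 4 of 12 were marked. Mutant summits were more frequent at this list: 6 of the 12 genes had one inside or within 1 kb, against 1.79% of all coding genes. CBF3, a factor that switches on cold-response genes, had a fold of 4.02 at 11 bp with 102 ChIP fragments. CBF1 had 3.66, the heat-shock factor gene HSFA1A had 2.37, and CBF2 had 1.86 over a control signal of 10.9 times background. The 3 CBF genes are neighbours and closely alike. Clock and light genes had 3 of 20 marked, the bZIP gene HYH (2.76), the ubiquitin ligase gene COP1 (2.43) and the photoreceptor gene PHYA (2.29), none with a −log10 q of 10.

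Receptor-like kinase genes had 6 of 23 marked, with a median fold of 2.98. THE1, which encodes a receptor kinase that monitors the cell wall, had a site 88 bp inside at chr5:22080163-22080340, with a fold of 4.75 and 130 ChIP fragments. HAE, a receptor kinase gene of floral organ shedding, had 3.67, the wall-associated kinase gene WAK2 had 3.24, and the flagellin receptor gene FLS2 had 2.73. Cell wall genes had 6 of 19 marked, led by the expansin gene EXPA4 (2.79) and the cellulose synthase genes CESA2 (2.78) and CESA1 (2.41), then EXPA5 (2.2). Leaf growth and polarity factors had 2 of 24, TCP10 (2.95) and AS2 (2.14).

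Histone genes had 4 of 23 marked (17.4%, 4.95 to 38.8), an interval that includes 9.05%. The 4 were among the 13 H2A genes of the list, and the 10 H2B, H3 and H4 genes had none. This difference was not tested. Of all list genes 22.5% had a site, and of all coding genes 9.05%, and the counts are too few to set H2A genes apart. They were HTA13 (3.44), HTA2 (2.69), HTA1 (2.17) and HTA7 (2.00). HTA13 alone had a −log10 q of 10 or more, and its fold alone met what the mutant call needed. At a −log10 q of 5 or more 2 histone genes were left. Chromatin genes had 5 of 27 marked, with the DNA methyltransferase gene CMT3 (3.11) highest, then SWC6 (2.67), a subunit of the complex that deposits H2A.Z, and the remodelling ATPase genes CHR11 (2.46) and BRM (2.34). Only CMT3 had a fold that met what the mutant call needed.

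Photosystem and light-harvesting genes had the highest share of the lists, 8 of 20, and the lowest median fold, 1.81. PSBP-1 (2.65), PSAL (2.64), PSBO1 (1.90) and PSAD-1 (1.84), subunits of the photosystems, led them. Control signal at their sites had a median of 5.65 times background, against 1.70 for all sites, and 4 of the 8 were above 5 times. None of the 8 was left with control signal at most 2 times background or with a limit of 250 bp, and 4 were left with control signal at most 5 times, so this list was not the highest under those settings. LHCB1.1 and LHCB1.3 are close copies that face each other across the same gap, and their sites had folds of 1.77 and 1.31 over control signals of 7.08 and 24.8 times background. These are highly expressed leaf genes, and the part of control signal or expression in the count was not tested.

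Abundant transcripts, listed to show signal at strongly expressed genes, had 6 of 20 marked, with a median fold of 2.42. They included the tubulin gene TUB5 (3.17), TCTP (2.69), the actin gene ACT2 (2.45) and the plastid aldolase gene FBA2 (2.39). Seed genes, silent in seedlings as a rule, had 3 of 16, the storage protein genes CRU3 (2.39) and CRA1 (2.29) and the oleosin gene OLEO4 (2.14). None of the 3 seed sites met what the mutant call needed, against 28.9% of all sites, and 3 sites are too few to differ from that share.

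**Figure D5:**
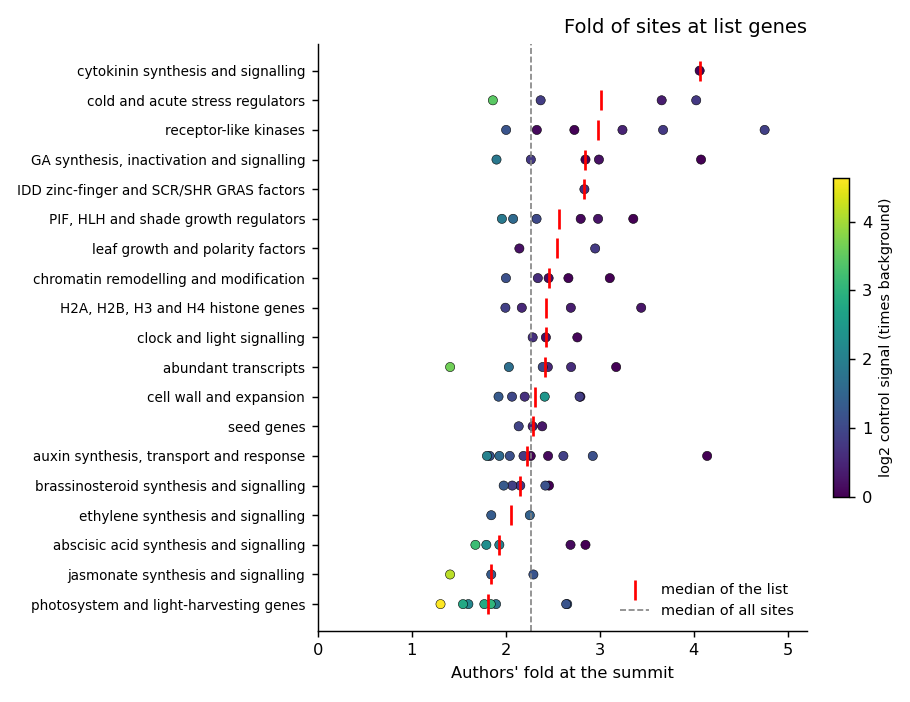
Authors' fold of the strongest site at each marked list gene, by list, coloured by the log2 of control signal in multiples of background; red ticks are list medians and the dashed line is the median of all 2504 sites, 2.27. The photosystem list has the lowest median (1.81), and THE1 has the highest fold at 4.75.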

How the data were processed

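The deposited peak lists of the FLAG-RGA wild type and FLAG-rga11 mutant were used, with 1 library per group and no replicate. Per the submitters' processing notes, the tools were MACS2 2.2.7.1, Bowtie2 2.4.5, deepTools 3.1.3 and Trimmomatic 0.39, and the genome was TAIR10. The authors deposited for each peak a fold (ratio of ChIP over control coverage), −log10 p and −log10 q values, and a score of 10 times −log10 q, which was not used further. Peak numbers ran to 7873 and 778 for 6116 and 505 peaks listed, so both lists hold part of the called peaks. Every listed peak had the same summit in both files, and 1 of the 506 mutant summits listed had no peak and was not used. Read totals were not analysed here.

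Genes came from RefSeq on TAIR10.1, whose nuclear coordinates were taken to equal TAIR10. The table gives no strand or sequence, so the planned share toward the gene start became the share facing the longer gap, and motifs were not searched. ChIP fragments and control level were solved from fold and p, matching the authors' −log10 p to 0.001 in 99.98% of wild-type peaks. In data simulated for the wild-type call with the same formula, 100% of 387 peaks were recovered. This checks the solving step and cannot show that the caller used that formula. The mutant call was not simulated. For mutant ChIP coverage a scaling of 0.470 was fitted here, as the value that best matched −log10 p of the mutant peaks with the weakest p. With it 99.8% of mutant peaks were solved, at a looser match than 0.001. The mutant background and the fold that the mutant call needed rest on this fit. Named genes were those of the 10 highest folds, the 5 highest −log10 q, the 3 sites on each side of the 500 bp limit, and up to 4 genes a list; no gene had 3 sites. Members and lists were chosen with earlier results of these data known. The 378 list entries all matched, for 377 genes. In all, 11 alternatives were run. Python 3.11.15, SciPy 1.17.1 and pandas 2.3.3 were used.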

Additional observations from a re-analysis of the deposited data

How the results depend on the processing

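No paired analysis was possible because each group had 1 library, and no replicate could be left out. Of the 11 alternatives, the 500 bp exclusion zone around mutant intervals, a required overlap of 50% of the interval and summits held by 1 gene moved none of the 6 main values beyond its interval, or a count by 1.5 times. A −log10 q of 5 or more left 1592 sites (39.8% of wild-type-only peaks) in 1593 genes, with a median fold of 2.46 and 6.22% above 5 times background. A −log10 q of 10 or more left 467 sites (28.6%) in 476 genes, with a median fold of 2.95 and 10.1% above 5 times background. A limit of 250 bp left 1081 sites (18.6%) in 1086 genes, with a median fold of 2.36, 64.1% facing the longer gap and 1.85% above 5 times background. A limit of 750 bp gave a share of 53.7%, a median fold of 2.24 and 6.26% above 5 times background. Control signal at most 2 times background left 1559 sites (40.6%) in 1565 genes with a median fold of 2.42, and at most 5 times gave a median fold of 2.30; both leave 0% above 5 times by construction. Requiring the fold of 2.93 left 307 sites (23.3%) in 313 genes, with a median fold of 3.21 and 0.326% above 5 times background. Counting genes of all types gave a share of 47.9%. The share facing the longer gap stayed within its interval in the other 10 alternatives. Of 209 list counts under the alternatives, 68 moved by over 1.5 times, 64 of them down. Where fewer peaks enter, fewer sites remain by construction.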

Other observations

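Gene families, matched by symbol or synonym with terms chosen after the sites were known, differed in how many members had a site, against 9.05% of all coding genes. BBX zinc-finger genes, many of them light-signalling regulators, had the highest share of the families examined. Of these genes 12 of 31 were marked (38.7%, 21.9 to 57.8), led by BBX27 (fold 3.50), BZS1 (2.99) and BBX21 (2.65). LHC light-harvesting genes had 7 of 21, TCP factor genes 6 of 22, GATA factor genes 7 of 29 and IAA genes 7 of 32. UGT glycosyltransferase genes had 13 of 64 (20.3%, 11.3 to 32.2), led by UGT75B1 (3.32). MYB genes had 8 of 125 (6.40%, 2.80 to 12.2), CPK calcium-dependent kinase genes 2 of 34 and KCS wax-synthesis genes 0 of 21, which has an interval of 0 to 16.1%. Single strong sites in other families were those at the NAC gene LOV1 (4.34), the wall enzyme gene XTH6 (4.29), BZIP61 (3.81) and TIP2;2 (3.61), a tonoplast water channel gene. Control signal was not compared between families. Members had to carry a family name, and of the named genes in the lists above 22.5% had a site, so 9.05% may be too low a yardstick. The intervals do not allow for the choice of which families are named here.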
